A study of Mus musculus with 30 samples.

Results

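Spleens of Pad2-/- mice given imiquimod were compared with spleens of WT mice given imiquimod, 3 libraries a group. These 6 libraries are the imiquimod spleens of both genotypes, of 30 libraries in the series, and were chosen by their genotype, agent and tissue labels. Of the 24957 genes in the spleen table, 11982 had a value of at least 1 RPKM (read numbers divided by transcript length and by each library's mapped reads) in at least 3 of the 18 spleen libraries and were tested.

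The series measured poly(A)-enriched RNA of mouse spleen and lymph node in Pad2-/-, Pad4-/- and WT mice, and its title places it in a TLR7-dependent form of lupus. Pad2-/- mice lack Padi2 and Pad4-/- mice lack Padi4, and the titles name the WT animals FVB, after an inbred strain. The Pad2-/- control spleens and the WT control spleens (3 libraries each), and the Pad2-/- lymph nodes and the WT lymph nodes under imiquimod (4 libraries each), are given beside the imiquimod spleens. The labels give neither the ages of the mice, the dose and length of treatment, the way the allele was made nor its strain of origin, and the extraction text mentions only imiquimod-treated mice, so that the control spleens rest on their agent label. No label ties a replicate to a mouse of its own, so p-values reflect only how these libraries vary, and that variation may be technical.

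Padi2 encodes peptidylarginine deiminase 2, a calcium-dependent enzyme that converts arginine in proteins to citrulline. Its relative PAD4, encoded by Padi4 in the same gene cluster, acts on histones and is known for its part in the release of chromatin nets by neutrophils. Imiquimod activates Toll-like receptor 7, an endosomal sensor of single-stranded RNA in plasmacytoid dendritic cells, B cells and macrophages, and repeated skin application to mice gives a lupus-like disease with an enlarged spleen in which blood cells are also formed.

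The libraries had the defining genes of spleen. Cd79a of B cells ranged from 225 to 438 RPKM in Pad2-/- spleens and from 289 to 449 RPKM in WT spleens, and Adgre1 of macrophages from 17.7 to 21.2 RPKM in Pad2-/- spleens and from 19 to 24.4 RPKM in WT spleens. Spic of red pulp macrophages and the marginal zone gene Marco were above 0 in all 6 libraries. The pancreas gene Cpa1 was listed at 0 in 4 of them, and the keratinocyte gene Krt5 in 5. The number of genes at 1 RPKM or more was 11125 to 11332. The absolute depth is unknown. The median within-group SD of a gene was 0.177 log2 units in Pad2-/- and 0.167 in WT imiquimod spleens, against 0.0766 in Pad2-/- and 0.0694 in WT control spleens. On a principal component analysis of the 6 libraries the first component, with 46.2% of the variance, did not separate the genotypes.

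Under imiquimod, 6 of 11982 genes (0.0501%) passed limma's test between Pad2-/- and WT spleens at a Benjamini-Hochberg adjusted p under 0.05. Of these, 4 were higher in Pad2-/- spleens (0.0334%) and 2 were lower (0.0167%). In imiquimod spleens each of the 6 was under 1 RPKM in every library of its lower group. Spleens of the higher genotype were enough for each to meet the filter. Counts by direction or position thus depend on that filter. All 6 lie on chromosome 4 within 10 Mb of Padi2, and 5 of them on its distal side, the other being Padi2 itself. Among the 11778 genes elsewhere in the genome 0 passed, while 763 (6.48%) had an unadjusted p under 0.05 in limma. Over all genes 797 had such a p (6.65%), of which 123 were higher in Pad2-/- spleens (1.03%) and 674 lower (5.63%). The median log2 fold change of all genes was -0.06.

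Padi2 had 0.468, 0.673 and 0.637 RPKM in the 3 Pad2-/- imiquimod spleens, against 5.23, 4.74 and 5.15 RPKM in the 3 WT spleens. The groups did not overlap, and the mean in Pad2-/- spleens was 11.8% of that in WT spleens. The log2 fold change was -2.35 ± 0.14 (SE, adjusted p = 0.000195, limma), on the log2(RPKM + 0.5) scale on which all fold changes are given and which understates the change of low genes. Padi2 also fell in Pad2-/- control spleens, with a log2 fold change of -2.68, and in Pad2-/- lymph nodes, with -2.27. Within each organ and agent, every library labelled Pad2-/- had less Padi2 than every library labelled WT. Padi4, which lies beside Padi2 on its proximal side, had 16.5, 25.1 and 24 RPKM in Pad2-/- spleens, against 8.16, 25.3 and 16.9 RPKM in WT spleens. Its groups overlapped and it did not pass (log2 fold change 0.48 ± 0.35, adjusted p = 0.867, limma).

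Angptl7, which encodes a secreted protein of the angiopoietin-like family, had the largest rise of the genes that passed. It was at 4.14, 4.54 and 4.46 RPKM in Pad2-/- imiquimod spleens, against 0.381, 0.284 and 0.334 RPKM in WT imiquimod spleens. The replicates of each group lay close together and the mean in Pad2-/- spleens was 13.1 times that in WT spleens (log2 fold change 2.55 ± 0.15, adjusted p = 0.000195, limma). The gene lies 7.54 Mb distal of Padi2, at chr4:148495181-148500462 by RefSeq's coordinates for GRCm38.p6, which mm10 denotes. In control spleens Angptl7 was at 0.791, 0.806 and 0.657 RPKM in Pad2-/- mice, against 0.318, 0.331 and 0.262 RPKM in WT mice, a smaller difference that also passed (0.64, adjusted p = 0.0297, limma; 0.103 in the fit over all 18 spleens). The difference between the imiquimod and the control contrast was itself tested and passed, at 1.91 ± 0.18 (adjusted p = 0.000246, limma interaction over all 18 spleens). In that fit imiquimod spleens share a common estimate of spread with the less variable control spleens. In lymph nodes the log2 fold change was 0.84 (adjusted p = 0.0748, limma).

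Cort, which encodes the neuropeptide cortistatin, a relative of somatostatin, had 1.36, 1.96 and 1.01 RPKM in Pad2-/- imiquimod spleens, against 0.109, 0.0394 and 0.102 RPKM in WT imiquimod spleens. The lowest Pad2-/- library stood well above the highest WT library (log2 fold change 1.71 ± 0.18, adjusted p = 0.0152, limma). Cort lies 8.17 Mb from Padi2 at chr4:149125034-149126763, and its log2 fold change in control spleens was 2.05. In lymph nodes, where it was below the filter, Cort had 1.60, 1.35, 0.651 and 0.365 RPKM in Pad2-/- mice, against 0, 0.0339, 0.0817 and 0.148 RPKM in WT mice.

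The other 3 genes belong to a large cluster of zinc finger genes that share much of their sequence. Zfp534 had 1.34, 2.82 and 2.39 RPKM in Pad2-/- imiquimod spleens, against 0.0480, 0.0229 and 0.0183 RPKM in WT imiquimod spleens. It rose (log2 fold change 2.30 ± 0.21, adjusted p = 0.00604, limma), with no overlap. Zfp990 had 0.543, 1.10 and 1.16 RPKM in Pad2-/- spleens, while in WT spleens it was listed at 0 in 2 libraries and at 0.0259 RPKM in replicate 2. It passed by a small margin (log2 fold change 1.46 ± 0.19, adjusted p = 0.0435, limma). The pseudogene Znf41-ps had 0.556, 0.565 and 0.613 RPKM in Pad2-/- spleens, against 2.01, 2.23 and 2.11 RPKM in WT spleens. It fell (log2 fold change -1.28 ± 0.16, adjusted p = 0.0431, limma), and its WT values were also apart from every Pad2-/- value. In lymph nodes Zfp534 (log2 fold change 2.35, adjusted p = 0.00274) and Znf41-ps (-1.49, adjusted p = 0.00146) passed too in limma, in a fit that also holds the Pad4-/- nodes. Zfp990 was not tested there.

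**Figure D1:**
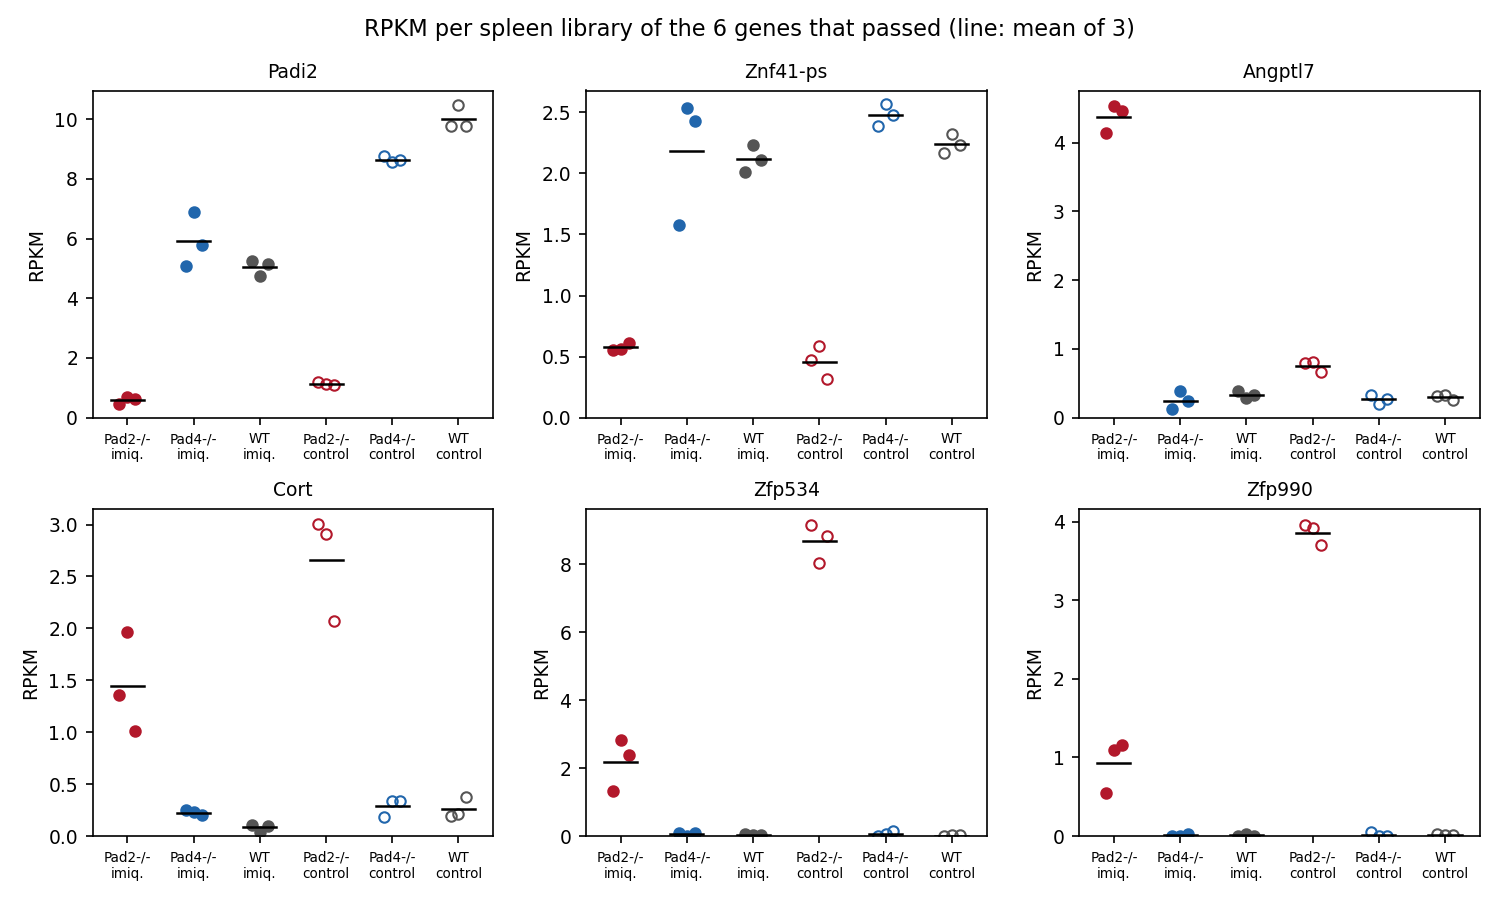
RPKM in each spleen library (points; 3 per group) of the 6 genes that passed between Pad2-/- and WT imiquimod spleens, with imiquimod groups as filled and control groups as open points and the group mean as a line. Padi2 and Znf41-ps are low and Angptl7, Cort, Zfp534 and Zfp990 high in both Pad2-/- groups, and Angptl7 is highest in Pad2-/- imiquimod spleens.

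When each library was left out in turn, Padi2 and Angptl7 passed in all 6 fits. Zfp534 did not pass without WT replicate 2 or 3, and Cort did not without Pad2-/- replicate 1 or any 1 WT library. Zfp990 passed only without Pad2-/- replicate 1, and Znf41-ps in none of the 6, so that 2 to 4 genes of the window passed in each.

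How far the 3 zinc finger values can be assigned to single genes is limited by shared sequence. Of the words of 50 bases in the annotated transcripts, 89.6% for Znf41-ps, 68.4% for Zfp534 and 29.1% for Zfp990 also occur in transcripts of other genes, against 0 for Angptl7 and Cort. The gene that shared most words with Znf41-ps was Zfp991, and with Zfp534 it was Zfp987. How reads that match several genes were counted is not given in the sources used here, so these 3 values are uncertain. A stretch of coding sequence that is the same in both genes that rose is given as an example: all 90 bases match, from coding base 158 to 247 in each, so no base is set in capitals. It is chr4:147675964-147676053 on the minus strand for Zfp534 and chr4:145536591-145536680 on the plus strand for Zfp990 (GRCm38).
Zfp534: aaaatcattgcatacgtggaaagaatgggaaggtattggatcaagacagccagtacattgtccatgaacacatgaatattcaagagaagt
Zfp990: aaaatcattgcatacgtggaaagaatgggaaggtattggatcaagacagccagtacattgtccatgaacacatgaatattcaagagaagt

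Zinc finger genes of this kind with a KRAB domain are known in mice as rapidly changing repressors of transposable elements. The cluster held further genes that did not pass under imiquimod. Zfp982 had 0.849, 0.885 and 1.10 RPKM in Pad2-/- spleens, against 2.73, 2.11 and 3.31 RPKM in WT spleens (log2 fold change -1.14, adjusted p = 0.258, limma). Zfp992 had a log2 fold change of -0.73 and Zfp985 one of 0.88, both at an adjusted p of 0.718 in limma. Their libraries did not overlap either, which held for 191 genes higher in Pad2-/- spleens (1.59%) and 1153 lower (9.62%) over all genes tested. The members of the cluster thus had point estimates in both directions.

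The window of 10 Mb on either side of Padi2 held 204 tested genes, and its distal and proximal sides differed. Distal of Padi2, 5 of 82 genes passed (6.10%) and 25 had an unadjusted p under 0.05 (30.5%). Proximal of it, 0 of 121 passed and 8 had such a p (6.61%), a share close to the 6.48% elsewhere. On chromosome 4 beyond the window 0 of 536 genes passed. Control spleens, which share no library with the imiquimod spleens, gave the same side: 21 of 82 distal genes passed (25.6%), and 0 of 121 proximal genes. Over all genes 44 passed in control spleens (0.367%), 29 higher in Pad2-/- mice (0.242%) and 15 lower (0.125%). All 6 genes that passed under imiquimod were among the 22 that passed in the control window.

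The 21 genes other than Padi2 that passed in the control window lay up to 8.76 Mb from it, and 21 of 21 had the same direction under imiquimod. The 17 of them that were tested in lymph node had that direction there too. Of the 22 genes elsewhere that passed in control spleens, 16 had the same direction under imiquimod. Across genes, which are not independent replicates, log2 fold changes under imiquimod and in control spleens had a Pearson r of 0.769 over the 82 distal genes, 0.439 over the 121 proximal genes and 0.335 over the 11778 genes elsewhere. The animals of both contrasts share genotype and possibly litter, and the libraries share a table.

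**Figure D2:**
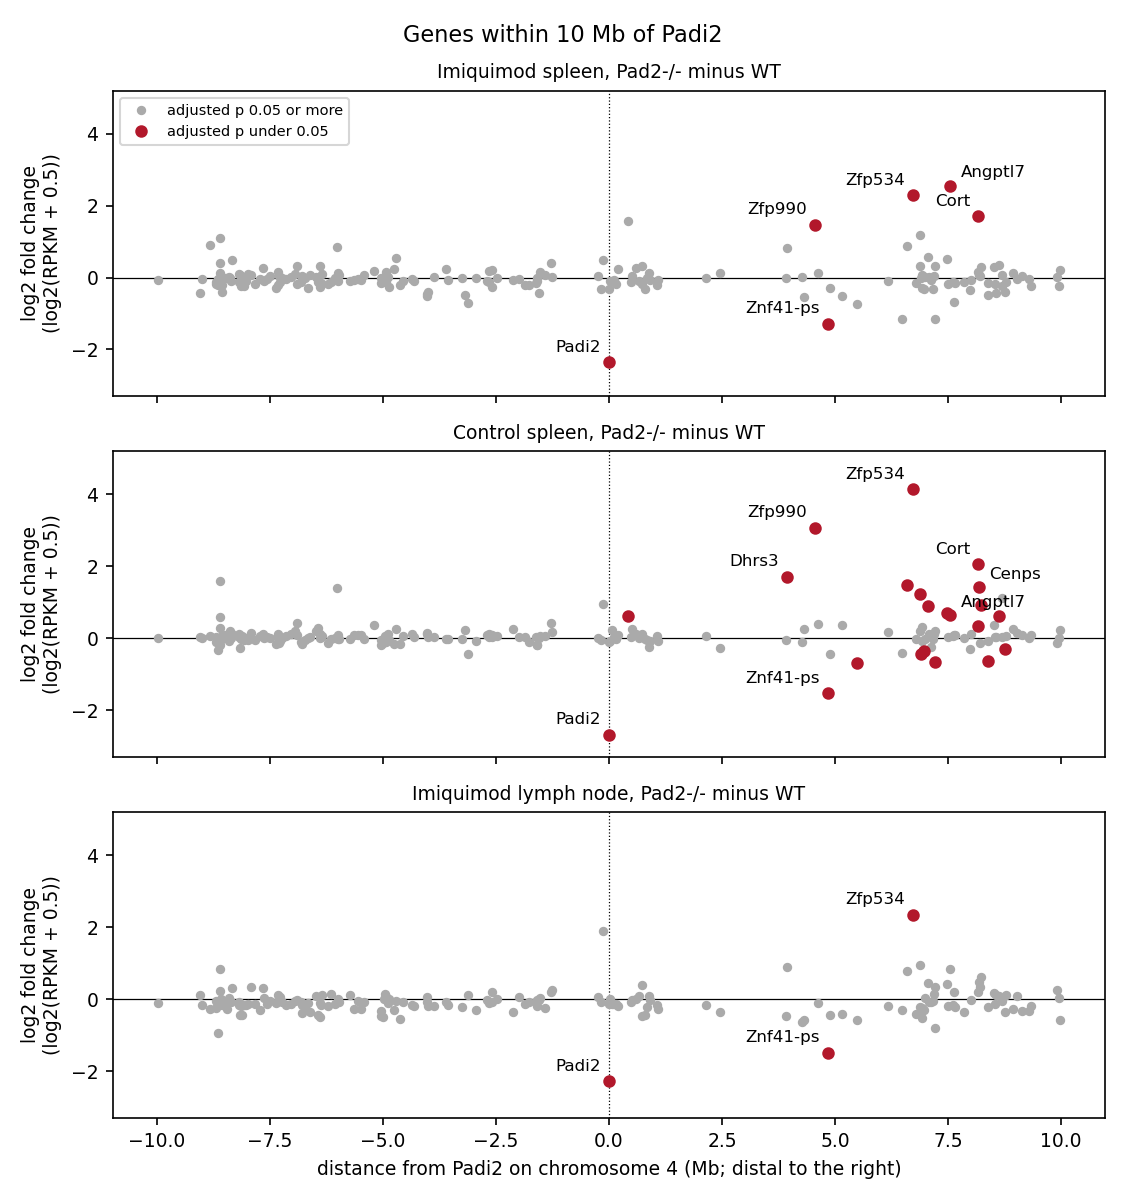
Log2 fold change of Pad2-/- over WT for each tested gene within 10 Mb of Padi2, against its distance from Padi2 in Mb, in imiquimod spleens, control spleens and imiquimod lymph nodes, with genes at an adjusted p under 0.05 in red. The red points other than Padi2 lie on the distal side in each panel, and no proximal gene is red.

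Other distal genes did not pass under imiquimod but passed in control spleens. Fbxo44, which encodes a substrate receptor of an SCF ubiquitin ligase, was at 0.349, 0.277 and 0.193 RPKM in Pad2-/- spleens, against 1.37, 0.931 and 1.38 RPKM in WT spleens. The groups were apart, but its adjusted p was 0.0662 in limma (log2 fold change -1.15 ± 0.16). Dhrs3, which encodes a retinal reductase, had 11.2, 12 and 10.6 RPKM in Pad2-/- spleens and 4.65, 5.73 and 8.78 RPKM in WT spleens, again with no overlap (log2 fold change 0.81, adjusted p = 0.718, limma). The pseudogene Rps19-ps3 had a log2 fold change of 1.19 and the endosomal chloride transporter gene Clcn6 one of 0.58, both at an adjusted p of 0.718 in limma. In control spleens, where each of these 4 passed, the log2 fold changes were -0.66 for Fbxo44, 1.71 for Dhrs3, 1.24 for Rps19-ps3 and 0.89 for Clcn6.

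For 4 genes the difference between genotypes itself differed between imiquimod and control spleens (0.0334% of 11982, limma interaction at an adjusted p under 0.05), and all 4 lie in the window. Beside Angptl7 they were Zfp534 (-1.85, adjusted p = 0.00675), Zfp990 (-1.61, adjusted p = 0.00675) and Cenps (-1.34, adjusted p = 0.0181), which encodes the centromere protein CENP-S and is annotated beside Cort. The interaction test pooled the spread of imiquimod spleens with that of the less variable control spleens. Zfp534 and Zfp990 were higher in Pad2-/- mice under both agents, by less under imiquimod: in control spleens their log2 fold changes were 4.15 and 3.07. Cenps had 14.8, 22.5 and 14.8 RPKM in Pad2-/- imiquimod spleens, against 16.8, 15.7 and 15.6 RPKM in WT imiquimod spleens, and these overlap. In control spleens it had 11.3, 11 and 10.4 RPKM in Pad2-/- mice, against 3.68, 3.98 and 3.55 RPKM in WT mice.

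Genes of known roles were described by 30 lists of pathway genes and cell type markers, of which 26 had no tested member in the window. Apart from Padi2 itself, 0 members of any list passed in limma, against 6 of 11982 genes (0.0501%) over all. In the fit over all 18 spleens 6 list members passed. The direction of the point estimates, whose background is 7823 genes lower (65.3%) and 4159 higher (34.7%), and the count at an unadjusted p under 0.05 are given instead. In whole tissue, fewer cells of a type and less RNA per cell cannot be told apart.

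The list of HSP90 and HSP70 chaperones had the lowest median among lists with 5 or more tested members. These proteins fold and hold other proteins, and their genes are targets of heat shock factor 1. All 15 members had lower point estimates in Pad2-/- imiquimod spleens and 13 had an unadjusted p under 0.05 (5.63% over all genes for that direction). In 11 of 15 the libraries did not overlap, against 9.62% over all genes. The median log2 fold change was -0.49, with members from -1.36 to -0.28. The summed level of the list was 2706, 2515 and 2617 RPKM in Pad2-/- spleens, against 3776, 3543 and 3617 RPKM in WT spleens, and the groups did not overlap.

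Hspa8, the constitutive HSP70 and the most abundant member, had 1096, 989 and 1044 RPKM in Pad2-/- spleens, against 1603, 1584 and 1487 RPKM in WT spleens. Every Pad2-/- library was below every WT library, at a log2 fold change of -0.58 ± 0.11 (adjusted p = 0.402, limma). Cacybp, which encodes a binding partner of the ubiquitin ligase Siah1, had 41.8, 39.6 and 38.4 RPKM in Pad2-/- spleens, against 57.7, 56.4 and 55.5 RPKM in WT spleens. It too was apart (log2 fold change -0.50 ± 0.09, adjusted p = 0.402, limma). Hspe1, the mitochondrial HSP10, was at 151, 151 and 154 RPKM in Pad2-/- spleens and at 212, 184 and 235 RPKM in WT spleens (-0.46, adjusted p = 0.718, limma). These 3 members passed in the fit over all 18 spleens, at adjusted p of 0.0138, 0.0138 and 0.0390 in limma, a fit in which imiquimod spleens share 1 estimate of spread with the less variable control spleens.

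The other members ran the same way. Hsp90aa1, the inducible HSP90, had 289, 229 and 255 RPKM in Pad2-/- spleens, against 374, 322 and 389 RPKM in WT spleens. Hsp90ab1, the constitutive HSP90, had 578, 622 and 599 RPKM in Pad2-/- spleens, against 768, 724 and 721 RPKM in WT spleens. The co-chaperone genes Stip1 (-0.41), Ahsa1 (-0.28) and Fkbp4 (-0.43), the HSP110 gene Hsph1 (-0.58) and the HSP40 genes Dnaja1 (-0.53) and Dnajb1 (-0.49) were lower in log2 fold change with no overlap of libraries, none at an adjusted p under 0.718 in limma. Hspd1 (-0.50) and Chordc1 (-0.38) overlapped. The stress-induced pair Hspa1a and Hspa1b had the lowest point estimates and the widest spread: Hspa1b was at 4.08, 3.21 and 2.29 RPKM in Pad2-/- spleens, against 11.7, 19.8 and 2.75 RPKM in WT spleens. WT replicate 3 lay inside the range of the Pad2-/- libraries, and the unadjusted p of Hspa1b was 0.0601.

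In other libraries the chaperone list had 13 of 15 members lower in Pad2-/- control spleens (median -0.29), where Fkbp4 and Ahsa1 passed (adjusted p = 0.0435 and 0.0273, limma; 0.507 and 0.0220 in the fit over all 18 spleens), and 15 of 15 lower in Pad2-/- lymph nodes (median -0.59). In lymph nodes Hsph1 (-1.22, adjusted p = 0.0363), Dnaja1 (-0.78, adjusted p = 0.0119) and Chordc1 (-0.71, adjusted p = 0.0311) passed in limma, in a fit that also holds the Pad4-/- nodes. In earlier results of these data 2 lymph node libraries labelled Pad4-/- went against their label for Padi4. In every lymph node fit that holds them they enter only the estimate of spread. With the 8 Pad2-/- and WT nodes alone Dnaja1 passed (adjusted p = 0.0468), and Hsph1 and Chordc1 did not (0.0877 and 0.0988, limma). In the fit with the Pad4-/- nodes 57 of 12285 genes passed in all (0.464%), 7 of them lower in Pad2-/- mice (0.057%). In Pad4-/- imiquimod spleens, set against the same WT libraries, the median of the list was -0.57. The list of immediate early and handling stress genes had 13 of 17 members higher in Pad2-/- imiquimod spleens (median 0.12, and -0.04 without Pad2-/- replicate 2). Its summed level was 562 to 786 RPKM in Pad2-/- and 620 to 635 RPKM in WT spleens, with an overlap. Of that list Dusp1, a phosphatase gene, was lower without overlap (-0.50, adjusted p = 0.738) and Ier3 higher (0.76, adjusted p = 0.738; limma). Their part in the chaperone values was not tested. Hspa8 shared 39.4% and Hsp90aa1 47.5% of its words of 50 bases with other genes, mainly pseudogenes.

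**Figure D3:**
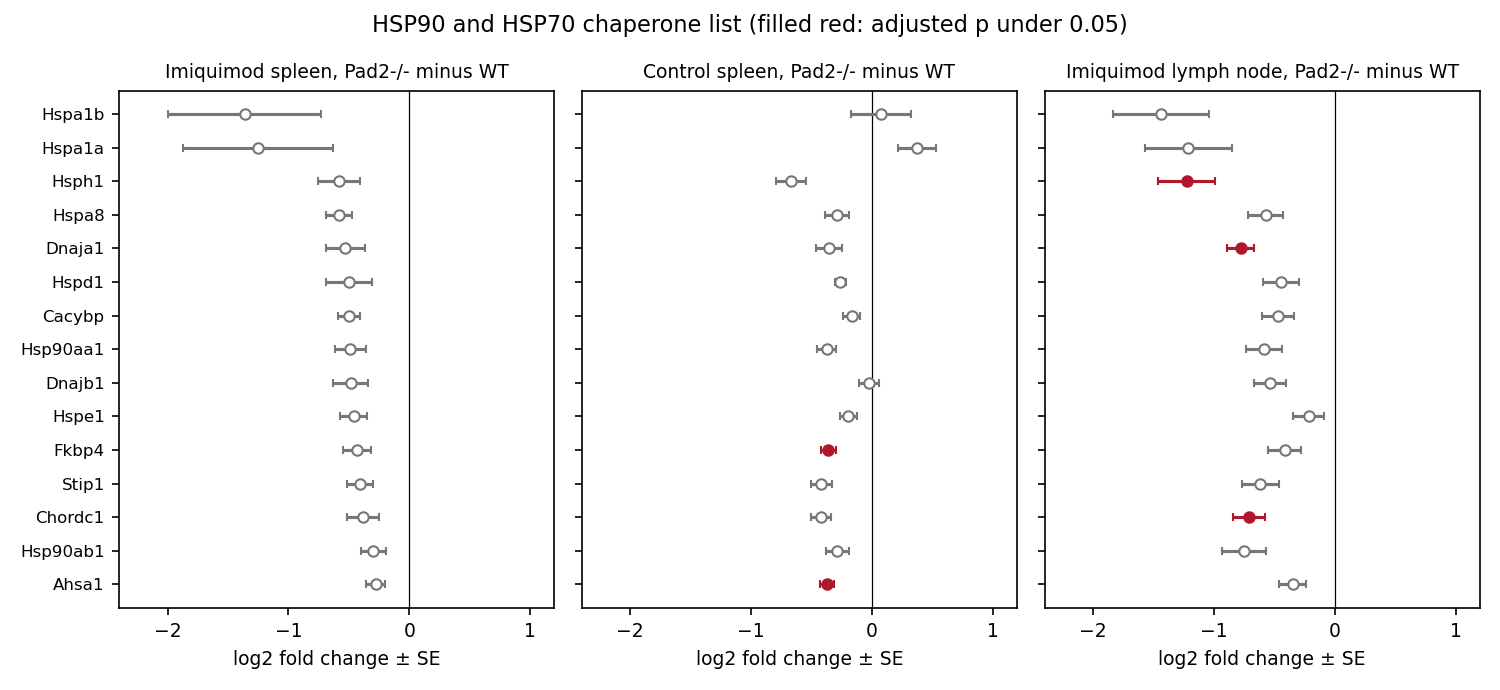
Log2 fold change of Pad2-/- over WT with its SE for the 15 chaperone genes (rows) in imiquimod spleens, control spleens and imiquimod lymph nodes, with genes at an adjusted p under 0.05 as filled red points. All points lie left of 0 in imiquimod spleens and lymph nodes, and 13 of 15 in control spleens.

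The promoters of 3 members show the binding word of heat shock factor 1, which is why they are given. RefSeq promoter windows around the gene start (GRCm38.p6) were found for 12 of the 15 members, and not for Hspa8, Hsp90aa1 and Hsp90ab1. The word of 3 units, GAANNTTCNNGAA on either strand, occurred in 3 of 12 (25%), against 143 of 27025 promoters in all (0.529%) and 36 of 9321 promoters of genes tested in spleen (0.386%). A word of 2 units, GAANNTTC or TTCNNGAA, which also lies within the longer word, occurred in 7 of 12 (58.3%), against 15.1% of all promoters and 12% of those tested. The 7 include Hspa1a and Hspa1b, whose promoters are nearly the same. Genes of this list are known targets of heat shock factor 1, so a high share follows from the choice of list. It is no result of these libraries. A match describes the letters alone. Capitals mark the bases in these words in Hspe1 (chr1:55087898-55088197, plus strand), Chordc1 (chr9:18292017-18292316, plus strand) and Hsph1 (chr5:149636287-149636586, minus strand).
Hspe1: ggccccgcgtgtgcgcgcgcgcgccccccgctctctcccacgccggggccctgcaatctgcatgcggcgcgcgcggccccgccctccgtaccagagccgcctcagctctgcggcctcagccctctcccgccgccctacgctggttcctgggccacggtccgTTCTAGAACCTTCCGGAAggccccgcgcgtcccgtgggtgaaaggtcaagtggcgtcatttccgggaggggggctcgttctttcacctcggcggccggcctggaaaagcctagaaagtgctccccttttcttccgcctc
Chordc1: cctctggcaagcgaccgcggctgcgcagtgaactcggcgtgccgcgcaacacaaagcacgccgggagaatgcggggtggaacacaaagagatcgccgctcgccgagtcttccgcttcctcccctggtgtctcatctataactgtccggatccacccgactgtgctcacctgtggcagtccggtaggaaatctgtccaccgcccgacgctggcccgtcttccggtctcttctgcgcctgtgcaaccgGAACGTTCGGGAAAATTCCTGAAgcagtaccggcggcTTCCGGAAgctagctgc
Hsph1: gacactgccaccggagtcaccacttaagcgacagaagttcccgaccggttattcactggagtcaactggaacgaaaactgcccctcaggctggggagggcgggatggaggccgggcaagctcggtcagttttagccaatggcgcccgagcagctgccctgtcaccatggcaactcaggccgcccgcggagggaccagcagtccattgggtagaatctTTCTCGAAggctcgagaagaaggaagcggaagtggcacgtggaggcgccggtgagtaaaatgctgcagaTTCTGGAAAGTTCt

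T cell genes had point estimates in the other direction. In the pan-T cell list 20 of 21 members were higher in Pad2-/- imiquimod spleens, 5 with an unadjusted p under 0.05 (1.03% over all genes for that direction), at a median of 0.27. Without Pad2-/- replicate 2 that median was 0.09, and without Pad2-/- replicate 1 it was 0.50. Cd8a, the alpha chain of the CD8 co-receptor of cytotoxic T cells, had 9.59, 10.2 and 11.1 RPKM in Pad2-/- spleens, against 3.59, 6.0 and 5.51 RPKM in WT spleens. All 3 Pad2-/- libraries were above all 3 WT libraries (log2 fold change 0.99 ± 0.17), but Cd8a did not pass (adjusted p = 0.251, limma). Its partner Cd8b1 had 17.6, 18.3 and 23.8 RPKM in Pad2-/- spleens, against 6.04, 12.9 and 12.5 RPKM in WT spleens, without overlap (0.95 ± 0.27, adjusted p = 0.718, limma). Il7r, the interleukin-7 receptor of resting T cells, overlapped, at 15.5, 30.4 and 24.4 RPKM in Pad2-/- spleens and 17.1, 14 and 16.5 RPKM in WT spleens.

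Cd8a had no such difference between Pad2-/- and WT mice in control spleens or lymph nodes. Its log2 fold change was -0.09 in control spleens and -0.04 in lymph nodes, and the difference between the imiquimod and the control contrast, 1.08 ± 0.19, had an adjusted p of 0.0812 (limma interaction). The level of Cd8a in control spleens was higher in both genotypes, at 34.1, 28.8 and 27.1 RPKM in Pad2-/- mice and 30.3, 33.0 and 32.1 RPKM in WT mice. In the fit over all 18 spleens the imiquimod difference of Cd8a passed (adjusted p = 0.00324, limma). In Pad4-/- imiquimod spleens, against the same WT libraries, 9 of 11982 genes passed (0.0751%) and Cd8a was among them, with a log2 fold change of 1.83 (adjusted p = 0.00746, limma).

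The list of natural killer and cytotoxic genes had 16 of 19 members higher in Pad2-/- imiquimod spleens, 4 with an unadjusted p under 0.05, at a median of 0.20. Without WT replicate 3 that median was 0.09, without WT replicate 1 it was 0.12, and without WT replicate 2 it was 0.35. In the same 4 the libraries did not overlap, against 1.59% over all genes. Ctsw, a protease of cytotoxic lymphocytes, had 11.4, 13.5 and 12.4 RPKM in Pad2-/- spleens, against 7.04, 8.52 and 7.45 RPKM in WT spleens (0.66 ± 0.11, adjusted p = 0.258, limma). Klrd1, the CD94 chain of natural killer receptors, had 6.32, 7.67 and 7.29 RPKM in Pad2-/- spleens, against 4.84, 4.52 and 4.90 RPKM in WT spleens (0.53 ± 0.11, adjusted p = 0.714, limma). Ncr1 (0.39) and Klrb1c (0.44), both receptors of natural killer cells, were apart too, at an adjusted p of 0.738 in limma. In control spleens the medians of the pan-T and the natural killer lists were 0.00 and -0.07. In lymph nodes they were -0.19, with 15 of 21 members lower in Pad2-/- mice, and -0.08, with 11 of 17 lower, beside a median of -0.12 over genes tested in both organs. In Pad4-/- imiquimod spleens, set against the same WT libraries, the medians of the 2 lists were 0.44 and 0.32. There 2 members of each passed in limma, and the median of all genes was -0.04.

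The summed level of the pan-T list was 541 to 879 RPKM in Pad2-/- imiquimod spleens and 514 to 639 RPKM in WT imiquimod spleens, and that of the natural killer list 326 to 475 RPKM in Pad2-/- and 256 to 450 RPKM in WT spleens. Both overlapped. The list of T helper and regulatory T genes had 7 of 17 members higher and a median of -0.02.

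Markers of B cells and plasma cells were lower in point estimate. All 18 tested members of the B cell list were lower, at a median of -0.20, and 0 had an unadjusted p under 0.05. That median was 0.07 without Pad2-/- replicate 1 and 0.02 without WT replicate 1. Ms4a1, which encodes CD20, had 62.7, 153 and 89.6 RPKM in Pad2-/- spleens, against 174, 111 and 100 RPKM in WT spleens, and these overlap. The summed B cell level was 988 to 1997 RPKM in Pad2-/- and 1366 to 2101 RPKM in WT spleens. In the plasma cell list 12 of 13 members were lower, 3 with an unadjusted p under 0.05, at a median of -0.37, which was -0.22 without Pad2-/- replicate 3 and -0.58 without WT replicate 3. Derl3, of the degradation machinery of the endoplasmic reticulum, had 22.5, 19.4 and 14 RPKM in Pad2-/- spleens, against 43.7, 31.7 and 20.7 RPKM in WT spleens. Fkbp11, a prolyl isomerase of secretory cells, had 10.8, 8.40 and 6.01 RPKM in Pad2-/- spleens, against 19.3, 15.4 and 10.2 RPKM in WT spleens. Both overlapped, at an adjusted p of 0.738 in limma. The unfolded protein response list, which shares genes with the plasma cell list, had 21 of 23 members lower and a median of -0.34, or -0.21 without Pad2-/- replicate 3. In that list Ddit3, the stress transcription factor CHOP, was instead higher, without overlap (0.46, adjusted p = 0.738, limma). In lymph nodes 13 of 13 plasma cell genes were higher in Pad2-/- mice (median 0.34).

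The DNA replication list had 24 of 24 members lower in Pad2-/- imiquimod spleens, 3 with an unadjusted p under 0.05, at a median of -0.21. That median was -0.11 without Pad2-/- replicate 2, -0.11 without WT replicate 3, -0.33 without WT replicate 2 and -0.37 without Pad2-/- replicate 1. Rfc5, a subunit of the clamp loader, had 27.9, 25.2 and 24.9 RPKM in Pad2-/- spleens, against 32.7, 30.4 and 37.9 RPKM in WT spleens (-0.36, adjusted p = 0.718, limma). Gins2, of the replicative helicase, had 22.8, 19.99 and 16.6 RPKM in Pad2-/- spleens, against 24.8, 25.5 and 27.4 RPKM in WT spleens (-0.39, adjusted p = 0.738, limma). Both were apart. In control spleens 3 of 24 were lower, at a median of 0.12. In lymph nodes 24 of 24 were lower in Pad2-/- mice, at a median of -0.36 beside -0.12 over genes tested in both organs. In Pad4-/- imiquimod spleens, set against the same WT libraries, the median of the list was -0.43. The mitotic list had a median of -0.09, close to that of all genes.

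Imiquimod activates an endosomal Toll-like receptor, and the list of these receptors and their signalling had a median of -0.05 and 0 of 22 members with an unadjusted p under 0.05. In the type I interferon-stimulated list 29 of 34 members were lower, at a median of -0.23 (0.08 without WT replicate 2), and 1 had an unadjusted p under 0.05. That gene, Eif2ak2, which encodes the RNA-activated kinase PKR, had 4.85, 3.69 and 3.84 RPKM in Pad2-/- spleens, against 5.22, 8.29 and 4.61 RPKM in WT spleens (-0.47, adjusted p = 0.739, limma), with an overlap. The summed level of the list was 763, 463 and 599 RPKM in Pad2-/- spleens and 558, 955 and 434 RPKM in WT spleens, so that both groups spanned much the same range. The interferon-gamma response list had a median of -0.05. In lymph nodes 31 of 33 type I interferon-stimulated genes were lower in Pad2-/- mice (median -0.41). Of the interferon-gamma list 20 of 21 were lower there (median -0.67), beside -0.12 over genes tested in both organs. In limma 1 and 0 members passed there, and 0 and 0 with the 8 Pad2-/- and WT nodes alone. In control spleens the medians of the 2 lists were 0.07 and 0.03. Among inflammatory cytokines and chemokines, with a median of 0.09, the B cell chemokine Cxcl13 had 1.28, 0.595 and 0.635 RPKM in Pad2-/- spleens, against 3.80, 2.75 and 0.849 RPKM in WT spleens. Tnf had 7.32, 10.3 and 8.55 RPKM in Pad2-/- spleens, against 5.42, 7.93 and 5.68 RPKM in WT spleens. Both overlapped, at an adjusted p of 0.738 in limma.

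**Figure D4:**
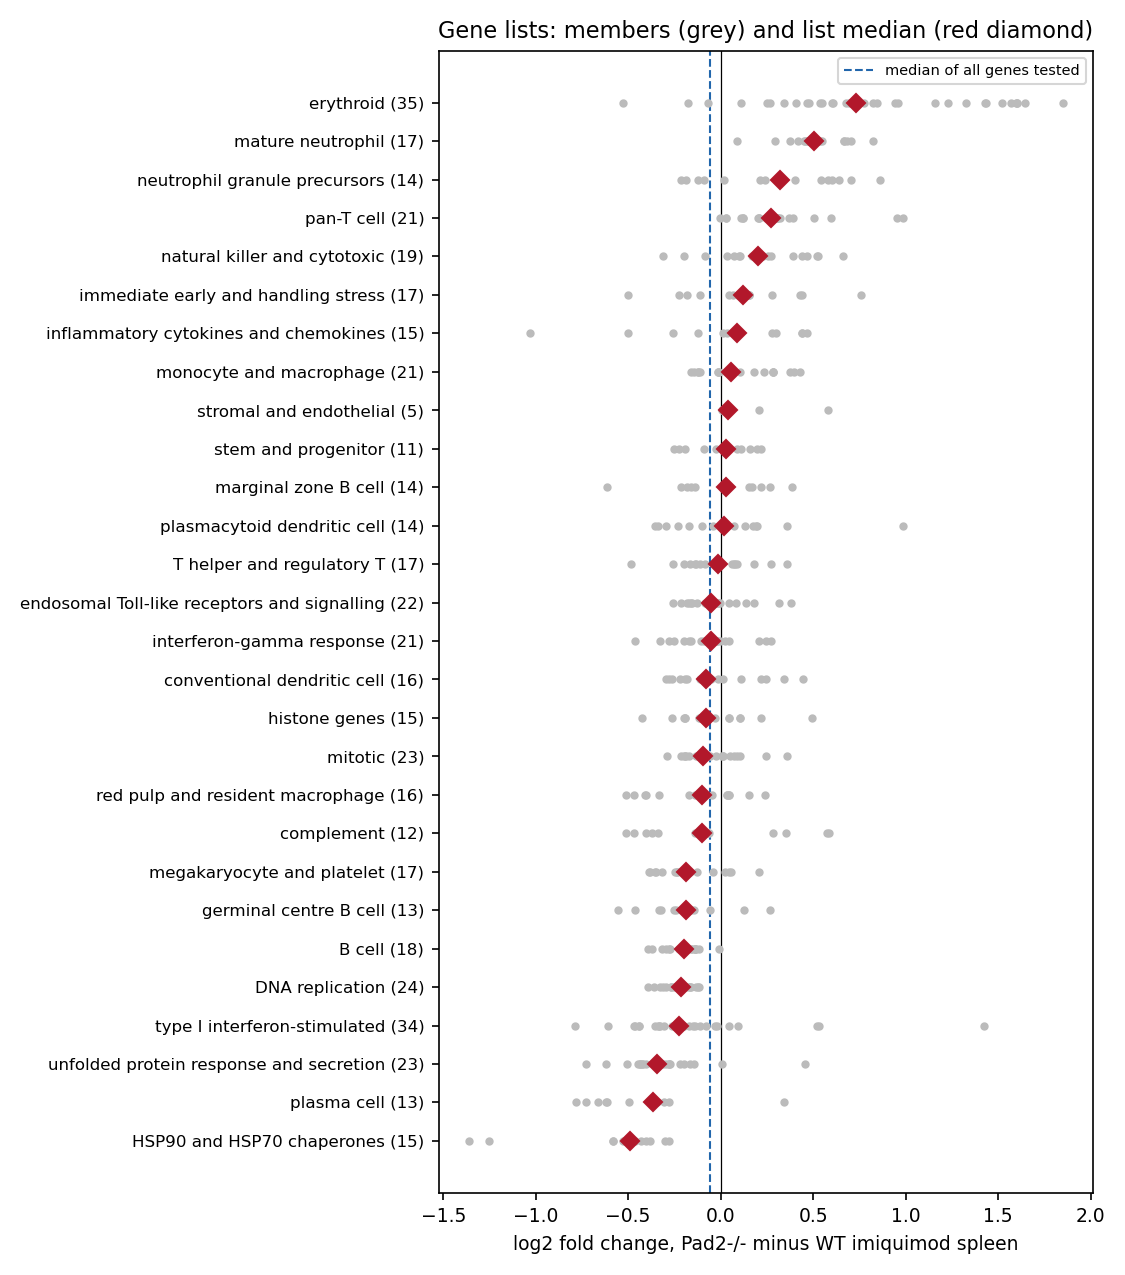
Log2 fold change of Pad2-/- over WT imiquimod spleen for the tested members (grey points; number in brackets) of each list with 5 or more of them, with the list median as a red diamond and the median of all genes, -0.06, as a dashed line. Erythroid and mature neutrophil lists have the highest medians and the chaperone list the lowest.

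The erythroid and both neutrophil lists had the highest medians among lists with 5 or more tested members. The mature neutrophil list had 17 of 17 members higher, at a median of 0.51, and 0 with an unadjusted p under 0.05. Without WT replicate 1 that median was 0.01, and without WT replicate 2 it was 1.04. Its summed level was 12627, 18048 and 14013 RPKM in Pad2-/- spleens, against 4737, 23102 and 10310 RPKM in WT spleens. WT replicate 1 was the lowest and WT replicate 2 the highest of the 6. In control spleens 15 of 17 members were higher in Pad2-/- mice and 2 lower (median 0.40). The summed level there was 1419 to 2124 RPKM in Pad2-/- and 722 to 1196 RPKM in WT mice, without overlap. The decoy receptor gene Il1r2 (0.67, adjusted p = 0.806) and the lectin gene Clec4d (0.82, adjusted p = 0.845) were given the smallest p of that list in limma. Ltf, the lactoferrin of specific granules, had 795, 836 and 850 RPKM in Pad2-/- spleens, against 201, 852 and 548 RPKM in WT spleens. The list of neutrophil precursors to which Ltf belongs had 10 of 14 members higher and a median of 0.32, which was -0.13 without WT replicate 1 and 0.73 without WT replicate 2. In control spleens 14 of 14 of them were higher in Pad2-/- mice (median 0.70), with an overlap of summed levels. In lymph nodes, in other libraries, 10 of 16 mature neutrophil genes passed and all 16 were higher in Pad2-/- mice (median 1.83), where 50 of 12285 genes rose in all (0.407%). With the 8 Pad2-/- and WT nodes alone 0 of these 16 passed, the smallest adjusted p being 0.0816 in limma.

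The erythroid list had 32 of 35 members higher and a median of 0.73. Its share of all RPKM was 21.6%, 1.71% and 19.3% in Pad2-/- spleens, against 2.1%, 2.49% and 7.55% in WT spleens, so that Pad2-/- replicate 2 was the lowest of the 6 and the other Pad2-/- libraries the highest. Hbb-b1, an adult beta-globin gene, had 26639, 2162 and 22138 RPKM in Pad2-/- spleens, against 2281, 3296 and 8672 RPKM in WT spleens (1.43 ± 1.16, adjusted p = 0.883, limma). Bpgm, the red cell enzyme of 2,3-bisphosphoglycerate synthesis, had 167, 18.1 and 173 RPKM in Pad2-/- spleens, against 19.5, 24.8 and 53.8 RPKM in WT spleens. Without Pad2-/- replicate 1 the median of the erythroid list was 0.06, and without Pad2-/- replicate 2 it was 1.91. In control spleens 34 of 35 members were higher in Pad2-/- mice (median 0.93), and 0 passed in limma. Their summed level was 4419 to 9003 RPKM in Pad2-/- and 1944 to 3905 RPKM in WT control spleens, without overlap. In lymph nodes 14 of 19 members were lower (median -0.23). RPKM divides by all mapped reads, so the red cell share of a library enters the level of every other gene in it, and its part in the other values was not tested beyond the following fits. With the erythroid level as a covariate, chosen after seeing the data, the chaperone median was -0.52 and the pan-T median 0.37. With the values rescaled without the erythroid list they were -0.40 and 0.36.

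**Figure D5:**
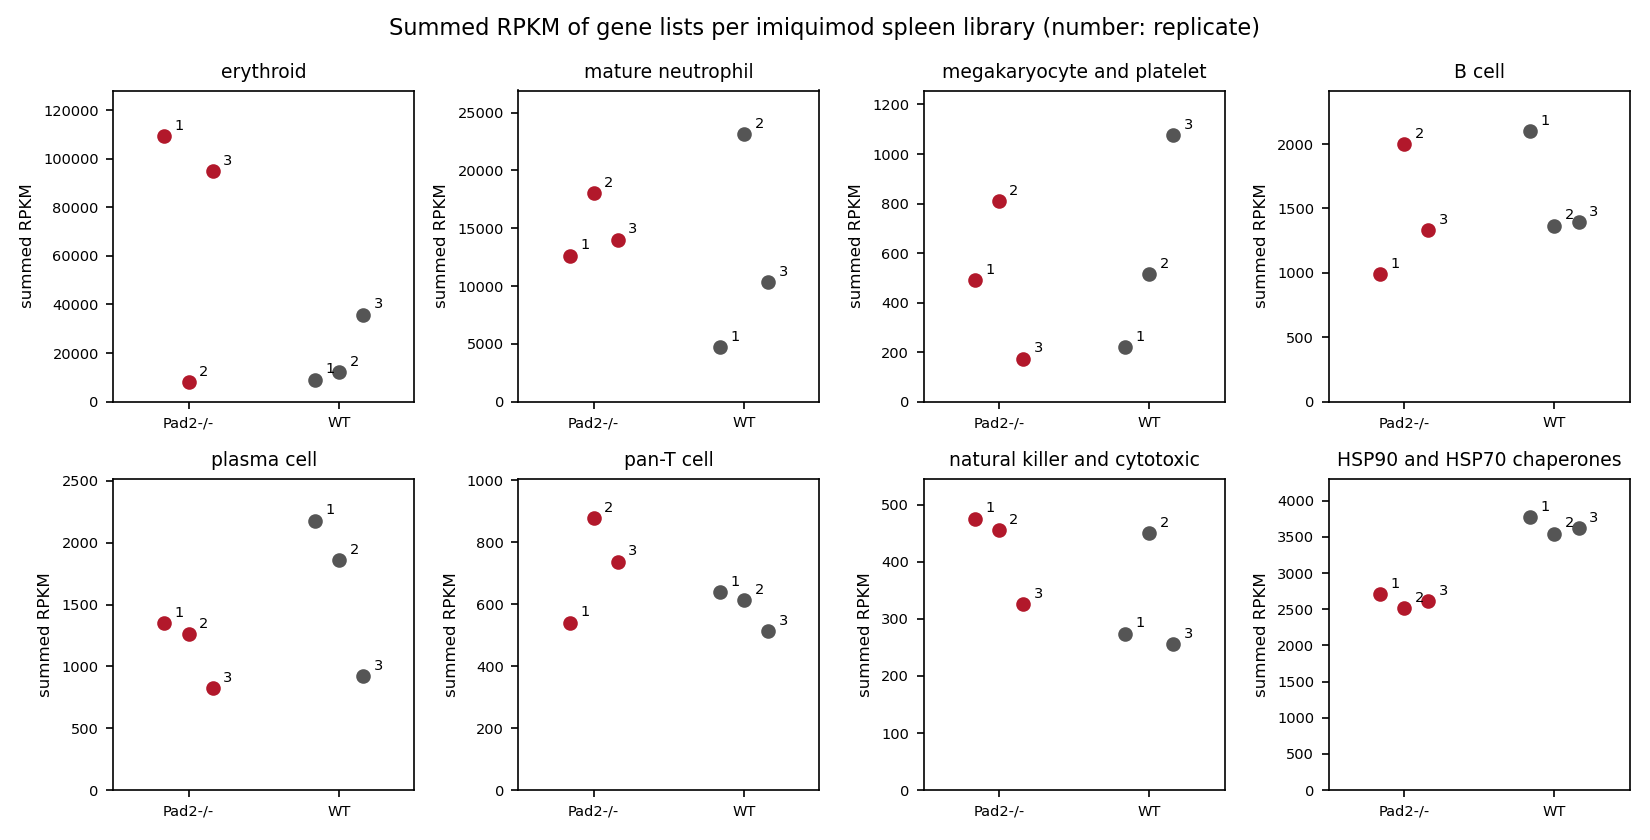
Summed RPKM of 8 gene lists in each of the 6 imiquimod spleen libraries, Pad2-/- on the left and WT on the right of each panel, with the replicate number beside the point. The chaperone panel has no overlap between the genotypes, and the other panels overlap.

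Among the remaining lists, those of germinal centre B cells (11 of 13 members lower) and of megakaryocytes and platelets (13 of 17 lower) each had a median of -0.19. Without WT replicate 1 the germinal centre median was 0.22, and without Pad2-/- replicate 1 it was 0.12. The megakaryocyte median was 0.36 without Pad2-/- replicate 3 and 0.29 without WT replicate 3, and -0.70 without WT replicate 1. The summed megakaryocyte level was 174 to 809 RPKM in Pad2-/- spleens and 220 to 1077 RPKM in WT spleens, with an overlap. The other medians were 0.06 for monocytes and macrophages, -0.10 for red pulp and resident macrophages, -0.08 for conventional and 0.02 for plasmacytoid dendritic cells, 0.03 for marginal zone B cells, 0.03 for stem and progenitor cells, -0.10 for complement, -0.08 for histone genes and 0.04 for stromal and endothelial cells. In none of them did more than 1 member have an unadjusted p under 0.05, the 1 being Cd8a among plasmacytoid dendritic cell genes. Of the pancreas and adipose list 2 of 18 genes were tested, and Fabp4, a fatty acid binding protein of adipocytes and of some vessels and macrophages, had 15.6, 17.2 and 13 RPKM in Pad2-/- spleens, against 12.1, 8.73 and 8.56 RPKM in WT spleens (0.62, adjusted p = 0.718, limma).

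A further 6 genes outside the window were among the 15 with the smallest p that did not pass. Ppa1, an inorganic pyrophosphatase, had 34.1, 33.9 and 32.9 RPKM in Pad2-/- spleens, against 49.5, 50.5 and 50.1 RPKM in WT spleens (-0.57 ± 0.11, adjusted p = 0.643, limma). Lrrc59, a membrane protein of the endoplasmic reticulum, had 53.5, 56.2 and 49.5 RPKM in Pad2-/- spleens, against 72.5, 71.0 and 76.7 RPKM in WT spleens (-0.47 ± 0.10, adjusted p = 0.687, limma). Phgdh, which encodes the first enzyme of serine synthesis, had 48.8, 52.7 and 44.5 RPKM in Pad2-/- spleens, against 65.3, 65.2 and 70.6 RPKM in WT spleens (-0.46, adjusted p = 0.718, limma). All 3 were apart between genotypes, with control log2 fold changes of -0.04 for Ppa1, 0.09 for Lrrc59 and -0.05 for Phgdh. Dynll1, a dynein light chain, had a log2 fold change of -0.39, and Gm4737, which shares 93.7% of its words of 50 bases with other genes and most with Ahcy, one of -0.49. Mir7013, a microRNA gene, was at 0.777, 0.369 and 0.760 RPKM in Pad2-/- spleens and listed at 0 in all 3 WT spleens (adjusted p = 0.718, limma).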

How the data were processed

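Spleen and lymph node RNA was sequenced from poly(A)-enriched libraries made with the NEBNext Ultra II kit, per the labels' protocols. The authors deposited RPKM values in 1 table per organ. Per the submitters' processing notes the tools were bcl2fastq 1.17.1 and TopHat2 2.1.0 with the build mm10. How RPKM was computed, on which annotation and with what rule for reads with several matches, is not given in the sources used here. RPKM holds no read numbers, so precision comes from replicates alone.

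Genes at 1 RPKM or more in at least 3 spleen libraries (4 in lymph node) entered limma 3.58.1 (R 4.3.3; lmFit and eBayes, trend on) as log2(RPKM + 0.5) in two-sided tests, with Benjamini-Hochberg adjustment over all genes tested. The fit used the 9 imiquimod spleens of 3 genotypes, since imiquimod spleens vary more than control spleens. Control spleens and lymph nodes had fits of their own, and the interaction used all 18 spleens with a common estimate of spread. The model was tested on simulated data. Coordinates are RefSeq's for GRCm38.p6, to which 11948 of 11982 tested genes matched.

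Members and lists were chosen with earlier results of these data known. The text names every gene that passed, the 15 with the next smallest p, and the smallest p of each list. A few genes chosen this way are left out of the text. Further genes within 10 Mb of Padi2, other list members and those under other observations were named after their values were seen. Alternatives were other pseudocounts, filters, scalings, sample sets, array weights, a replicate block and leaving out libraries.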

Additional observations from a re-analysis of the deposited data

Results flagged for a closer look

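For 4 genes within 10 Mb of Padi2 the Pad2-/- minus WT difference was not the same in imiquimod and in control spleens (limma interaction, adjusted p under 0.05). That fit pools the spread of imiquimod and of the less variable control spleens. The difference of the log2 fold changes was 1.91 for Angptl7, -1.85 for Zfp534, -1.61 for Zfp990 and -1.34 for Cenps. Angptl7 differed more between the genotypes under imiquimod, and Zfp534, Zfp990 and Cenps more in control spleens. In absolute level, Zfp990 was at 0.543 to 1.16 RPKM in Pad2-/- imiquimod spleens, against 3.70 to 3.96 RPKM in Pad2-/- control spleens.

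In WT lymph nodes Fbxo44 had 1 library, at 1.69 RPKM, that stood apart from the other 3 at 1.42, 1.42 and 1.45 RPKM. Chance alone sets about 1 in 20 groups apart in this way. The Pad2-/- lymph nodes, at 0.476, 0.461, 0.807 and 0.853 RPKM, were below all 4.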

How the results depend on the processing

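Of the counts under imiquimod, 4 genes higher and 2 lower in Pad2-/- spleens, 6 near Padi2, 0 elsewhere and 0 list members, some moved by over 1.5 times. The fit over all 18 spleens gave 18 higher and 40 lower, 13 near Padi2, 45 elsewhere and 6 list members. Array weights gave 562, 1739, 57, 2244 and 129, but their estimate did not converge and gave Pad2-/- replicate 3 a weight of 32.7, so these counts rest on 1 library. The 6 libraries alone gave 1 higher, 1 lower and 2 near Padi2. A replicate block gave 2 higher, 1 lower and 3 near Padi2. Same-numbered libraries had correlations of -0.20, 0.40 and 0.29 over genes, and those with unlike numbers ran from -0.60 to 0.52. These are correlations of deviations from means of 3 libraries, so they cannot decide whether the numbers pair libraries. A pseudocount of 1, a filter on the 6 libraries and rescaling without the erythroid list each gave 1 lower. No filter gave 3 elsewhere, and the erythroid covariate, chosen after seeing the data, 1. Leaving out 1 library gave 1 to 3 higher, 1 to 2 lower, 2 to 4 near Padi2 and 0 to 1 elsewhere, the 1 without Pad2-/- replicate 2. In the fit of 18 spleens control spleens gave 13 higher and 4 lower (29 and 15 in their own fit), and the 8 lymph nodes alone gave 2 higher and 3 lower (50 and 7 with all 12). Cenps changed direction, at -0.13 with array weights and -0.11 without Pad2-/- replicate 2; leaving out 1 library gave -0.11 to 0.18. The cause of these changes was not tested. The chaperone median stayed from -0.54 to -0.40 and was below 0 in all 18 alternatives, some of which cannot change a median by construction, as were those of DNA replication, plasma cell and unfolded protein response. The B cell median ran from -0.48 to 0.07, the erythroid from -0.07 to 1.91 and the interferon-stimulated from -0.48 to 0.08. Quantile normalization moved the median of all genes by 0.04 and median-ratio scaling by 0.06.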

Other observations

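In the fit over all 18 spleens, whose pooled spread is smaller than that of the imiquimod spleens, 58 genes passed between Pad2-/- and WT imiquimod spleens (0.484%), 45 of them outside the window around Padi2. Of these 45, 10 were higher and 35 lower in Pad2-/- spleens, and all 6 genes that passed in the fit of the imiquimod spleens alone were among the 58. The fold changes are the same in both fits and only the spread differs. The genes named here were chosen after their values were seen. Both Phgdh and Psat1, successive enzymes of serine synthesis, were lower: Psat1 had 22.4, 26.5 and 22.6 RPKM in Pad2-/- spleens, against 34.6, 32 and 35.6 RPKM in WT spleens (log2 fold change -0.51, adjusted p = 0.0376 in that limma fit and 0.718 in the imiquimod fit). Ahcy, which hydrolyses S-adenosylhomocysteine, had 37.0, 37.1 and 34.9 RPKM in Pad2-/- spleens, against 48.9, 44.7 and 56.9 RPKM in WT spleens. The chaperonin subunit gene Cct5 (-0.34), the HSP90 co-chaperone gene Ptges3 (-0.31), the isoprenoid enzyme gene Fdps (-0.43) and the mitochondrial ribosome genes Mrps7 (-0.42), Mrpl12 (-0.43) and Mrpl15 (-0.32) were lower too, with no overlap of libraries.

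Cdkn1b, which encodes the cell cycle inhibitor p27, ran the other way. It had 61.1, 58.4 and 63.6 RPKM in Pad2-/- spleens, against 46.5, 48.0 and 47.6 RPKM in WT spleens (log2 fold change 0.36, adjusted p = 0.00951 in the limma fit of 18 spleens and 0.718 in the imiquimod fit). In control spleens its log2 fold change was 0.00, and in lymph nodes it was -0.10.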
